A study of Mus musculus with 2 samples.

Results

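The genes described are the matrix metalloproteinases (MMPs), the ADAMTS proteases, the ADAMTS-like proteins and the tissue inhibitors of metalloproteinases (TIMPs) of mouse bone marrow stroma. They were chosen by name alone: every gene row whose symbol began with Mmp, Adamts, Adamtsl or Timp and a digit was taken, which gave 50 of 32293 gene rows. These were 22 MMP, 19 ADAMTS, 5 ADAMTSL and 4 TIMP genes. In all nuclei together they held 27992 UMIs (unique molecular identifiers, which count RNA molecules), 0.2943% of the total.

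MMPs and ADAMTS proteases are zinc-dependent enzymes that cut proteins of the extracellular matrix. Most are made as inactive proenzymes, and TIMPs block many of them by binding the catalytic site. Collagenases open the triple helix of fibrillar collagen, gelatinases degrade the unwound chains and basement membrane collagen, and membrane-bound MMPs act at the cell surface and can activate other MMPs. Several ADAMTS proteases cut the proteoglycans aggrecan and versican, and others trim the amino-terminal propeptide from procollagen. ADAMTS-like proteins share the ancillary domains of the ADAMTS family but lack the protease domain. In growing bone, removal of cartilage and bone matrix by these enzymes accompanies vessel entry and remodelling.

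Femurs were taken at postnatal day 21 (P21) from mice that carried Prrx1-cre and R26R(tdTomato/+), the growth plates at the distal end and the proximal ends were discarded, and the rest was dissociated with enzymes before tdTomato+ cells were sorted and their nuclei loaded. Prrx1-cre is active in limb bud mesenchyme, so tdTomato marks the stromal and skeletal descendants of those cells, and blood cells found here passed the sort without being its target. RNA and open chromatin (assay for transposase-accessible chromatin, ATAC) were read from the same nuclei with 10x Multiome, in 1 RNA library and 1 ATAC library, which share their barcodes. There was 1 library of each kind, so there was no biological replicate and no other genotype, age or treatment to compare. Differences between classes of nuclei are therefore given as values without a test, and the 95% intervals are exact Poisson (levels) or Clopper-Pearson (shares) intervals that cover counting error only.

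Of 728634 barcodes, 4663 had at least 500 UMIs and 1000 ATAC counts, and 42.44% of these were over the limit of 20% mitochondrial UMIs. After 58 likely doublets were removed, 2626 nuclei remained with a median of 1778 UMIs and 28696 ATAC counts. Clusters were named from marker lists that contain no gene of the 4 families. The stromal side held 1619 nuclei in 8 classes, which were reticular-like (731 nuclei), osteoblast-like (375), Pde4c/Ttc23l (227), mural-like (82), osteocyte-like (71), tendon/periosteum-like (69), chondrocyte-like (45) and Col10a1/Fn1 (19). The Pde4c/Ttc23l class matched no marker list clearly and carries the names of leading genes. The Col10a1/Fn1 class was a sub-cluster of the osteocyte-like cluster of 90 nuclei. It was set apart because its Col10a1 share of UMIs was at least 5 times that of the rest, so Col10a1 was part of its selection. The blood side held 468 nuclei in 4 classes, which were B-lymphoid-like (136), erythroid-like (130), macrophage-like (117) and granulocyte-like (85). RNA of the tdTomato transgene was at 8.39 to 52.1 CPM (counts per 1000000 UMIs of the class) in blood classes and at 219 to 508 CPM in stromal classes. Endothelial-like (19) and unnamed nuclei (520) entered no comparison. The largest named classes differed in depth, with a median of 1484 UMIs in reticular-like nuclei and 6220 in osteoblast-like nuclei.

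For each gene a class was set against the other classes of its side together, as the log2 ratio of CPM after 0.5 counts were added to each side. A gene was tested in this sense if both sides together held at least 20 counts, and it was called higher or lower past a 2-fold ratio. The genes described were left out of the clustering that made the classes. The levels by class are descriptions, since there was no biological replicate. Free RNA was read from 62603 nearly empty barcodes. Mmp13 was at 540 CPM there, Timp1 at 178 CPM, Mmp14 at 119 CPM and Mmp9 at 114 CPM. A level below these values in a class was not taken as evidence of expression by that class. This mark is cautious, since expected free RNA was 8.968% to 43.244% of a class's counts. A level below it does not show absence of expression either.

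RNA of 27 of the 50 genes reached 50 UMIs in the named classes, of which 9 were MMP, 13 ADAMTS, 2 ADAMTSL and 3 TIMP genes. Another 19 genes were detected below that level, and Mmp1b, Mmp7, Mmp20 and Mmp21 had 0 UMIs. The families peaked in different classes. Summed MMP RNA was at 6278 CPM in Col10a1/Fn1 nuclei and 4183 CPM in Pde4c/Ttc23l nuclei. It was between 479 CPM (chondrocyte-like) and 1990 CPM (tendon/periosteum-like) in the other stromal classes. The 2 highest sums rest on few genes and nuclei. In Col10a1/Fn1 nuclei 696 of 890 MMP UMIs were Mmp13, 561 of them in 5 nuclei. In Pde4c/Ttc23l nuclei 871 of 2508 were Mmp9 UMIs of 5 nuclei. Summed ADAMTS RNA was at 2357 CPM in mural-like and 1588 CPM in reticular-like nuclei, against 436 CPM in chondrocyte-like nuclei. Summed TIMP RNA had another order. It was at 1225 CPM in chondrocyte-like, 1007 CPM in tendon/periosteum-like, 517 CPM in Pde4c/Ttc23l and 480 CPM in Col10a1/Fn1 nuclei. Reticular-like nuclei had 229 CPM and mural-like nuclei 216 CPM.

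**Figure D1:**
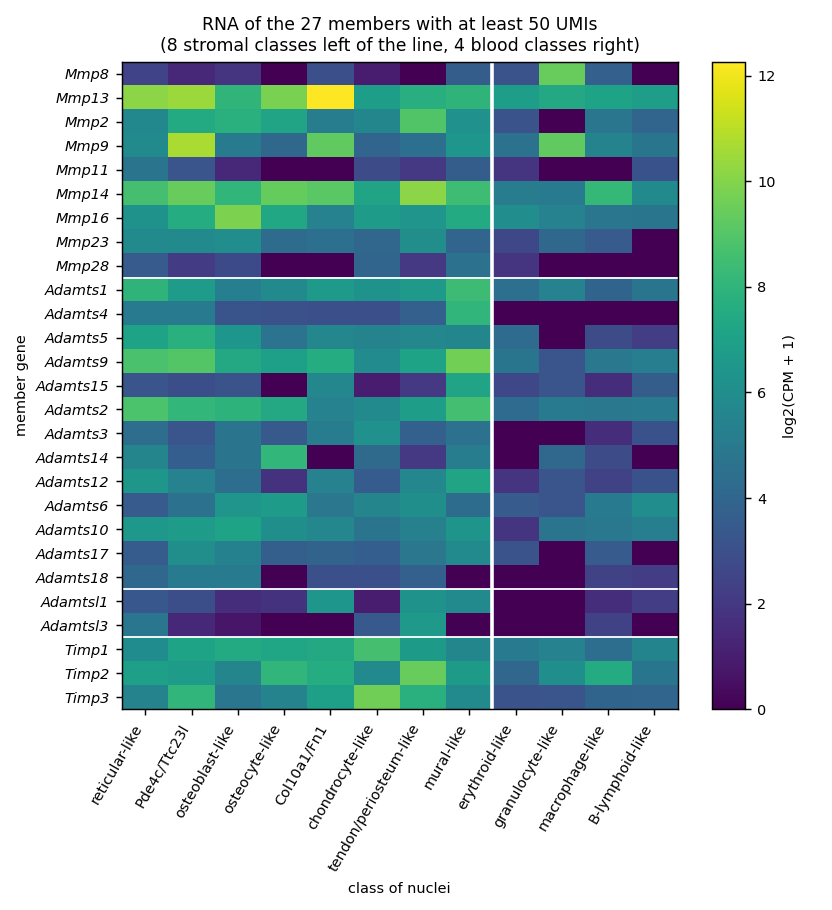
RNA level of the 27 genes with at least 50 UMIs (rows, by family and role) in the 8 stromal and 4 blood classes (columns), as log2(CPM + 1) in colour. Mmp13 is strongest in Col10a1/Fn1 nuclei, Mmp16 in osteoblast-like, Adamts4 and Adamts15 in mural-like, Timp3 in chondrocyte-like and Mmp8 in granulocyte-like nuclei.

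Among collagenases, Mmp13 (collagenase 3, the main interstitial collagenase of mouse bone and hypertrophic cartilage) had the widest range. Col10a1/Fn1 nuclei had 4909 CPM (95% interval 4551 to 5288), Pde4c/Ttc23l nuclei 1351 CPM (1260 to 1447), reticular-like nuclei 1138 CPM (1085 to 1192) and osteocyte-like nuclei 902 CPM (812 to 998). Osteoblast-like nuclei were at 257 CPM, mural-like at 250 CPM, tendon/periosteum-like at 204 CPM and chondrocyte-like nuclei at 113 CPM. The first 4 classes stood above the free-RNA level and the other 4 below it, at 0.210 (chondrocyte-like) to 0.476 (osteoblast-like) of it. The intervals of the osteoblast-like, mural-like and tendon/periosteum-like classes overlapped. On the log2 scale its ratio was 3.15 in Col10a1/Fn1 nuclei, 1.23 in Pde4c/Ttc23l nuclei, 1.18 in reticular-like nuclei and -1.81 in osteoblast-like nuclei.

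Mmp13 RNA was spread unevenly over nuclei. In the reticular-like class 29 of 731 nuclei held 50% of its UMIs, and in the Col10a1/Fn1 class 5 of 19 nuclei held 80.6%, with 193 UMIs in the highest. Without the 5 nuclei richest in Mmp13, the ratio was 1.87 in Col10a1/Fn1 nuclei, 0.86 in reticular-like nuclei and 0.62 in Pde4c/Ttc23l nuclei, so the last 2 classes no longer passed 2-fold. The reticular-like call also depended on the pooling of the other classes, since with equal weight for each of them the ratio was -0.0037. An Mmp13 UMI was present in 49.8% of reticular-like nuclei (46.1 to 53.5), and in 28.5% after each nucleus was thinned to 500 UMIs. In B-lymphoid-like nuclei, which should lack the gene, the shares were 19.9% and 5.15% after thinning, at median depths of 1484 UMIs in reticular-like and 1318 UMIs in B-lymphoid-like nuclei. In the 4 blood classes Mmp13 stood at 0.207 to 0.311 of its free-RNA level, and Col1a1, which blood cells do not make, at 0.175 to 0.285 of its own. The chondrocyte-like nuclei split into groups with 258, 52.5 and 48.8 CPM of Mmp13, against 4909 CPM in the Col10a1/Fn1 class.

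Mmp8 (collagenase 2, the neutrophil collagenase) was the reverse case. It was at 671 CPM (532 to 836, 80 UMIs) in granulocyte-like nuclei and at 12.5, 7.86 and 0 CPM in macrophage-like, erythroid-like and B-lymphoid-like nuclei, a log2 ratio of 6.33 to the other blood classes. No stromal class exceeded 11.3 CPM, in mural-like nuclei (3 UMIs). Thinned to 500 UMIs, 23.5% of granulocyte-like nuclei still held an Mmp8 UMI (15 to 34). Mmp1b, the remaining collagenase, had no UMI.

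The promoters of the 2 collagenases are shown because these genes, neighbours on chromosome 9, took opposite sides of the stroma and blood comparison. They are RefSeq promoters on GRCm38.p6, 250 bases before to 50 after the start site, at chr9:7272264-7272563 for Mmp13 and chr9:7558179-7558478 for Mmp8, both on the plus strand. Capitals mark the letters searched for on both strands, which were AP-1 (TGANTCA), RUNX (TGTGGT), SOX (ACAAAG), ETS (AGGAAGT) and C/EBP (TTGCNNAA).
Mmp13 promoter: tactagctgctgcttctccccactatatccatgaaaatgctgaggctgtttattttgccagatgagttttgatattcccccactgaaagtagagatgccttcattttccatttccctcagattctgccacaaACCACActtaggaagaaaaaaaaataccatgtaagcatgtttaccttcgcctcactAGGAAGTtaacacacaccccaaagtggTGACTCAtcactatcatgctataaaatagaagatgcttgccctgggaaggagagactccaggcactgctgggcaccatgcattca
Mmp8 promoter: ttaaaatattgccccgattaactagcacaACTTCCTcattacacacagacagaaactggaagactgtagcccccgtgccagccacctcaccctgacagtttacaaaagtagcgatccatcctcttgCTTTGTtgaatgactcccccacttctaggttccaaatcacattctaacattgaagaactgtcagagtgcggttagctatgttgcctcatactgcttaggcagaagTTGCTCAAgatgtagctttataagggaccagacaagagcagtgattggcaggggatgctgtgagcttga
Counted from the start site, the Mmp13 promoter held an AP-1 match at -35 to -29, an ETS match at -62 to -56 and a RUNX match on the minus strand at -118 to -113. The Mmp8 promoter held a C/EBP match at -19 to -12 and, on the minus strand, an ETS match at -221 to -215 and a SOX match at -124 to -119. Of 32851 RefSeq promoters of this length, 7.808% held the AP-1 letters, 16.761% RUNX, 18.712% SOX, 9.351% ETS and 10.797% C/EBP. A match is a description of the sequence and not a measured site.

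**Figure D2:**
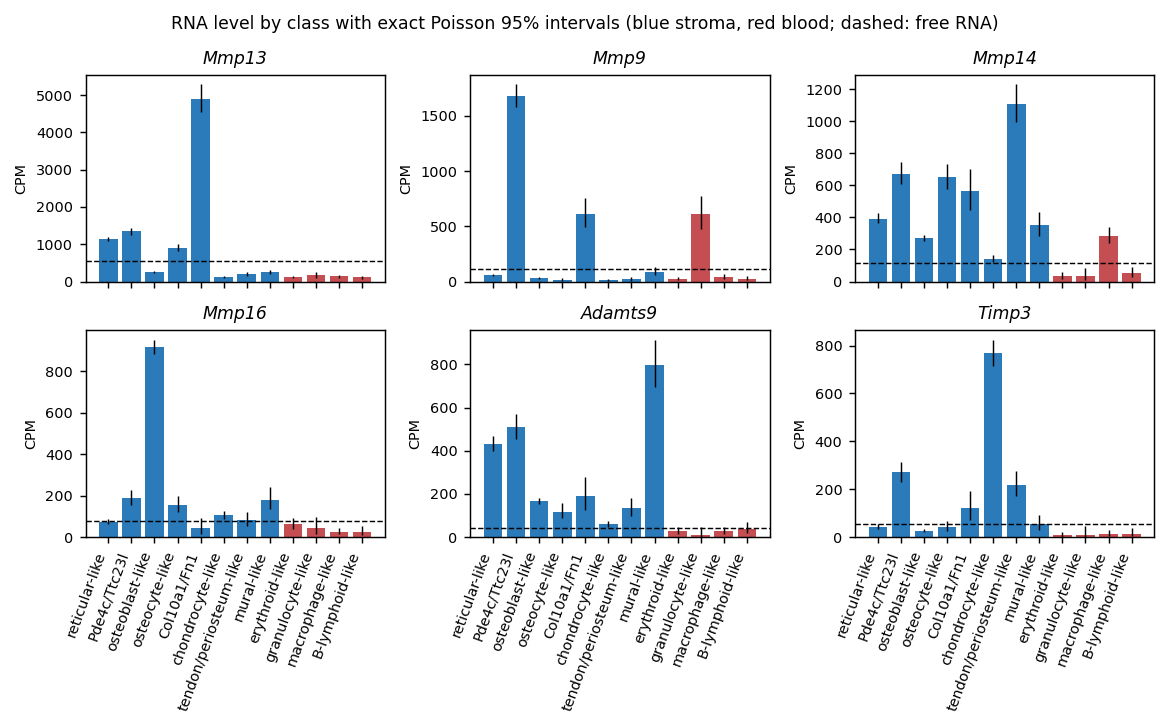
RNA level (CPM, linear axis from 0) of Mmp13, Mmp9, Mmp14, Mmp16, Adamts9 and Timp3 in the 8 stromal and 4 blood classes; bars are levels, whiskers the exact Poisson 95% interval, the dashed line the level in free RNA. Mmp16 stands out in osteoblast-like nuclei (917 CPM), Timp3 in chondrocyte-like nuclei (768 CPM), and Mmp13 lies below its dashed line in all 4 blood classes.

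Among gelatinases, Mmp9 (gelatinase B, known from osteoclasts and neutrophils) was at 1678 CPM (1576 to 1785) in Pde4c/Ttc23l nuclei and 614 CPM (492 to 757) in Col10a1/Fn1 nuclei. It was at or below 87.0 CPM in the other 6 stromal classes, under its free-RNA level. The log2 ratio was 5.09 in Pde4c/Ttc23l nuclei, but 5 of 227 nuclei held 86.6% of the 1006 UMIs (366, 268, 154, 45 and 38 UMIs). Without them the class was at 239 CPM, a ratio of 2.28. After the mitochondrial limit was lowered to 10% and the nuclei were clustered anew, the class no longer stood out for Mmp9, at a ratio of -0.20. The 5 nuclei had mitochondrial shares of 14.3%, 6.18%, 16.0%, 3.06% and 16.7%, in the order of their Mmp9 counts. Those with 268 and 45 Mmp9 UMIs thus lay under that limit. Mmp9 in reticular-like nuclei, lower in the main classes, took the other sign there. Where those nuclei were placed was not tested. In the Col10a1/Fn1 class 73 of 87 UMIs lay in 1 nucleus, and without the 5 richest nuclei 0 remained.

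The 5 nuclei had 2745 to 10905 UMIs, against a class median of 1673, and being chosen for Mmp9 they are described without comparison of that gene. Mmp13 was at 5901 CPM in them and 1080 CPM in the other 222 nuclei of the class, and Mmp14 at 3529 and 504 CPM. Timp3 was at 208 CPM in them and 274 CPM in the others. Cspg4 was at 563 and 74.2 CPM and Col1a1 at 5575 and 19427 CPM. The 5 nuclei differed among themselves, and whether they are of 1 cell type was not tested. Cemip, a hyaluronan-degrading protein, had 0, 0, 23, 2 and 29 UMIs in them, in the order of their Mmp9 counts. The nucleus with 38 Mmp9 UMIs held 176 of their 182 Col10a1 UMIs and 159 of their 180 Spp1 UMIs. Ptprc, Csf1r and Acp5, which mark leukocytes, macrophages and osteoclasts, and the endothelial genes Cdh5 and Pecam1 were at 0 in all 5. Ctsk, another osteoclast gene, had 4 UMIs over 2 of them (119 CPM, 32.3 to 304), against 40.7 CPM in the others, and the endothelial gene Kdr had 1 UMI. A tdTomato UMI was found in each. Of 13 nuclei of the class with at least 5 Mmp9 UMIs, 8 also had at least 5 Mmp13 UMIs, and 29 of all 227 nuclei had as many Mmp13 UMIs. A finer clustering split the class into 153 nuclei with 2768 CPM of Mmp9 and 72 nuclei with 144 CPM. These are levels of summed counts, and only 41 of the 222 nuclei besides the 5 held any Mmp9 UMI.

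**Figure D3:**
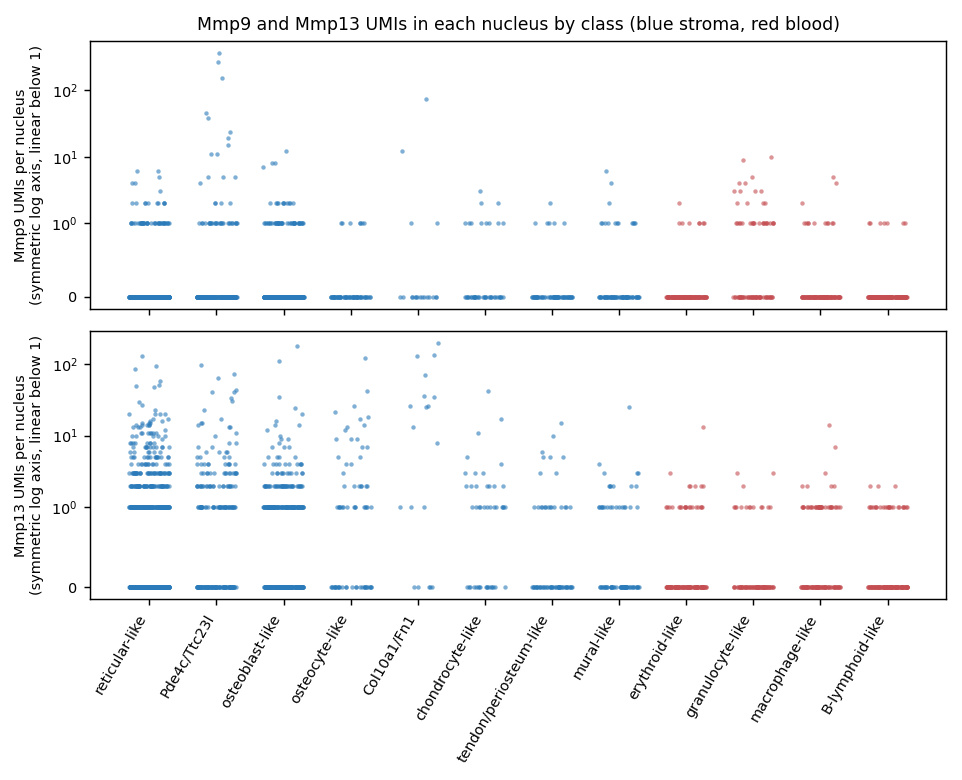
UMIs of Mmp9 and of Mmp13 in every nucleus of the 12 classes (1 point a nucleus, symmetric log axis, horizontal jitter without meaning). Mmp9 reaches 366 UMIs in 1 Pde4c/Ttc23l nucleus and 10 in the highest granulocyte-like nucleus, and Mmp13 reaches 193 UMIs in a Col10a1/Fn1 nucleus and 127 in a reticular-like nucleus.

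In blood, Mmp9 was at 613 CPM (480 to 770) in granulocyte-like nuclei and 43.8, 26.2 and 23.6 CPM in macrophage-like, B-lymphoid-like and erythroid-like nuclei, a log2 ratio of 4.22. It was spread over more nuclei there. The highest granulocyte-like nucleus had 10 Mmp9 UMIs, 40% of nuclei (29.5 to 51.2) had at least 1, and without the 5 richest the ratio was 3.47. Mmp2 (gelatinase A, activated at the cell surface by Mmp14) had another distribution. It was at 488 CPM (415 to 570) in tendon/periosteum-like nuclei, 220 CPM in osteoblast-like and 178 CPM in Pde4c/Ttc23l nuclei, against 51.6 CPM in reticular-like nuclei. Its ratio was 1.81 in tendon/periosteum-like and -1.82 in reticular-like nuclei.

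Of the membrane-bound MMPs, Mmp14 and Mmp16 had their highest levels in different stromal classes. Mmp14 (MT1-MMP, a pericellular collagenase) was at 1109 CPM (997 to 1230) in tendon/periosteum-like nuclei, 674 CPM in Pde4c/Ttc23l, 653 CPM in osteocyte-like, 564 CPM in Col10a1/Fn1, 393 CPM in reticular-like, 352 CPM in mural-like, 271 CPM in osteoblast-like and 143 CPM in chondrocyte-like nuclei. The Pde4c/Ttc23l, osteocyte-like and Col10a1/Fn1 intervals overlapped. Only the extremes passed 2-fold, at 1.68 in tendon/periosteum-like and -1.54 in chondrocyte-like nuclei. The chondrocyte-like ratio changed sign when the mitochondrial limit was lowered to 10% and the nuclei were clustered anew. Macrophage-like nuclei had 286 CPM of Mmp14 (240 to 338), against 33.6 to 56.1 CPM in the other blood classes, a ratio of 2.76 that was 2.10 without the 5 richest nuclei.

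Mmp16 (MT3-MMP) was at 917 CPM (883 to 952, 2739 UMIs) in osteoblast-like nuclei, and the other 7 stromal classes ran from 42.3 CPM (Col10a1/Fn1) to 190 CPM (Pde4c/Ttc23l). The ratio was 3.04, and 2.92 without the 5 richest nuclei, which held 10.8% of the UMIs. Mmp16 UMIs were found in 85.3% of osteoblast-like nuclei and, after thinning to 500 UMIs, in 31.2% (26.5 to 36.2), against 0.735% of thinned B-lymphoid-like nuclei. Of the other membrane-bound genes, Mmp25 had 12 UMIs in granulocyte-like nuclei (101 CPM, 52.0 to 176) and 0 in the other blood classes. Mmp15, Mmp17 and Mmp24 stayed below 50 UMIs.

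Of the remaining MMPs, Mmp11 (stromelysin 3) was at 25.1 CPM in reticular-like nuclei and 3.48 CPM in the other stromal classes together, a ratio of 2.83. Mmp23 was at 55.4 to 64.9 CPM in reticular-like, Pde4c/Ttc23l, osteoblast-like and tendon/periosteum-like nuclei and at 15.1 to 21.2 CPM in the other 4 stromal classes. Mmp28 (epilysin) reached 22.7 CPM in mural-like and 14.8 CPM in chondrocyte-like nuclei, from 6 and 15 UMIs. Mmp3, Mmp10, Mmp12, Mmp19 and Mmp27 stayed below 50 UMIs. Within that group Mmp19 had 24 UMIs in reticular-like nuclei (15.5 CPM, ratio 3.11), Mmp12 had 11 of 12 UMIs in Pde4c/Ttc23l nuclei and Mmp10 had 8 of 9 UMIs in Col10a1/Fn1 nuclei.

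Summed RNA of the 7 proteoglycan-cleaving ADAMTS genes was at 1604 CPM in mural-like nuclei, 874 CPM in Pde4c/Ttc23l and 860 CPM in reticular-like nuclei, with overlapping intervals between the Pde4c/Ttc23l and reticular-like classes, and at or below 395 CPM in the other 5 stromal classes. Adamts4 (aggrecanase 1) was at 269 CPM (210 to 339) in mural-like nuclei and at most 33.4 CPM in the other stromal classes, a ratio of 4.13. No Adamts4 UMI was found in the 4 blood classes, where 0 counts allow up to 2.40 CPM over all blood nuclei if the limit is set at 3 counts, and 2.96 CPM as the upper end of the exact Poisson interval. Adamts15 was at 140 CPM (98.5 to 193) in mural-like nuclei, a ratio of 4.33. Adamts9, which cuts versican and aggrecan, was at 798 CPM (694 to 913) in mural-like, 512 CPM in Pde4c/Ttc23l and 433 CPM in reticular-like nuclei, and at 59.1 to 190 CPM in the other 5 stromal classes. Its ratio of 1.76 in mural-like nuclei was 1.29 without the 5 richest nuclei, while those of Pde4c/Ttc23l (1.14) and reticular-like nuclei (1.05) fell below 2-fold, at 0.93 and 0.92.

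Adamts1, another versican- and aggrecan-cutting protease, reached 337 CPM in mural-like nuclei (270 to 414), 252 CPM in reticular-like nuclei (228 to 278) and 38.5 to 105 CPM in the other 6 stromal classes. Both calls held without the 5 richest nuclei, at 1.20 and 1.68. Adamts5 (aggrecanase 2) was highest in Pde4c/Ttc23l nuclei, at 217 CPM (181 to 257), followed by 135 CPM in reticular-like and 86.1 CPM in osteoblast-like nuclei, and was at 24.2 to 49.4 CPM in the other 5 stromal classes. In the finer clustering of the Pde4c/Ttc23l nuclei, the group of 72 had 329 CPM of Adamts5 and the group of 153 had 143 CPM. Adamts8 and Adamts20 stayed below 50 UMIs.

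The procollagen N-proteinases divided among 3 classes. Adamts2, which trims procollagen I, had 438 CPM in reticular-like nuclei (406 to 473), 382 CPM in mural-like nuclei (311 to 464), 275 CPM in Pde4c/Ttc23l and 244 CPM in osteoblast-like nuclei, and 55.2 CPM in chondrocyte-like nuclei. Adamts3, which trims procollagen II and also activates the lymphatic growth factor VEGF-C, was at 72.9 CPM (57.3 to 91.5) in chondrocyte-like nuclei and 20.7 CPM in the other stromal classes together, a ratio of 1.82. This value rested on few nuclei. Without the 5 richest it was 0.78, and among nuclei with at most 10% mitochondrial UMIs it was -0.53. Adamts14 was at 280 CPM (232 to 336) in osteocyte-like nuclei, 47.1 CPM in reticular-like nuclei and 0 to 34.0 CPM in the other 6 stromal classes, a ratio of 3.40 that was 3.02 without the 5 richest nuclei.

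Of the other ADAMTS genes, Adamts12, which cuts cartilage oligomeric matrix protein, was at 144 CPM (102 to 197) in mural-like and 88.3 CPM in reticular-like nuclei, and at 2.42 CPM in osteocyte-like nuclei. Adamts6 was at 106 CPM in osteocyte-like and 82.4 CPM in osteoblast-like nuclei, against 10.3 CPM in reticular-like nuclei. Adamts18 was at 33.5 CPM in osteoblast-like and 31.7 CPM in Pde4c/Ttc23l nuclei, with overlapping intervals. Adamts17 was at 65.1 CPM in Pde4c/Ttc23l, 56.7 CPM in mural-like and 41.2 CPM in osteoblast-like nuclei and at 11.0 CPM in reticular-like nuclei. Adamts10, which binds microfibrils, was the flattest on the high side, at 135 CPM in osteoblast-like nuclei and 25.6 CPM in chondrocyte-like nuclei. It passed 2-fold only downwards, in chondrocyte-like (-2.05) and tendon/periosteum-like nuclei (-1.26). The tendon/periosteum-like ratio changed sign when each nucleus was gated alone by its markers. Adamts7, Adamts13, Adamts16 and Adamts19 stayed below 50 UMIs.

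Of the ADAMTS-like genes, Adamtsl3 was at 95.8 CPM (65.1 to 136) in tendon/periosteum-like and 27.1 CPM in reticular-like nuclei, ratios of 3.61 and 1.82, and at 0.670 CPM in osteoblast-like nuclei. Adamtsl1 was at 84.6 CPM in Col10a1/Fn1, 74.1 CPM in tendon/periosteum-like and 56.7 CPM in mural-like nuclei, from 12, 24 and 15 UMIs. Adamtsl2, Adamtsl4 and Adamtsl5 stayed below 50 UMIs, and 14 Adamtsl2 UMIs lay in osteocyte-like nuclei (33.8 CPM).

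Timp3 and Timp1 had their highest stromal level in chondrocyte-like nuclei, and Timp2 in tendon/periosteum-like nuclei. Timp3, which is retained in the matrix and also inhibits ADAMTS proteases, was at 768 CPM (715 to 823) in chondrocyte-like nuclei, 270 CPM in Pde4c/Ttc23l, 219 CPM in tendon/periosteum-like and 120 CPM in Col10a1/Fn1 nuclei, and at 26.8 to 56.7 CPM in the other 4 stromal classes. The ratio of 3.48 was 2.91 without the 5 richest nuclei. Thinning to 500 UMIs left Timp3 in 17.8% of chondrocyte-like nuclei (8.002 to 32.1), from 82.2% at their median depth of 18840 UMIs, and in 0.735% of thinned B-lymphoid-like nuclei. Timp1, secreted and an inhibitor of most MMPs, was at 400 CPM (362 to 441) in chondrocyte-like nuclei. The other stromal classes had 49.2 to 177 CPM, none of them above the free-RNA level of 178 CPM. As shares of that level, they ran from 0.276 (mural-like) to 0.994 (osteoblast-like). Blood classes ran from 0.117 (macrophage-like) to 0.252 (B-lymphoid-like). Whether the Timp1 counts of those other stromal classes are free RNA was not tested. Timp2, which inhibits MMPs and takes part in the activation of Mmp2 by Mmp14, was at 686 CPM (599 to 782) in tendon/periosteum-like and 266 CPM (219 to 320) in osteocyte-like nuclei, where it was 143 CPM without the 5 richest nuclei, against 46.5 CPM in osteoblast-like nuclei. Tendon/periosteum-like nuclei carried the highest level of Mmp2, Mmp14 and Timp2 among the stromal classes. Timp2 was also at 186 CPM (149 to 228) in macrophage-like nuclei, a ratio of 2.74 to the other blood classes. Timp4 had 11 UMIs, 9 of them in reticular-like nuclei.

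The Timp3 promoter is shown as the contrast to Mmp13, being the promoter of the chondrocyte-like gene with the highest ratio and holding none of the 5 motifs. It lies at chr10:86300162-86300461 on the plus strand of GRCm38.p6 (RefSeq), in a start-site peak that also overlaps the Syn3 gene.
Timp3 promoter: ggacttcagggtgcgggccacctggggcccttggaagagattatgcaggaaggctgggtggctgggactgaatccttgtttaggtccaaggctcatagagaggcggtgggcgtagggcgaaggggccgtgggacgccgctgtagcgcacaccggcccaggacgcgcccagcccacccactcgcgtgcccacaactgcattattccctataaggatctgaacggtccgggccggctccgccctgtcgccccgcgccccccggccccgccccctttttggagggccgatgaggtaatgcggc
The absence says only that those letters are not in these 300 bases.

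By class, 32 of the 50 genes had enough RNA counts to be tested in the stroma, and the other 18 give no ratio. In reticular-like nuclei 9 were higher, where 17.2% of all tested genes were higher, and 9 were lower, where 10.1% were lower. The higher ones were Mmp13, Mmp11, Mmp19, Adamts1, Adamts2, Adamts9, Adamts12, Adamtsl3 and Adamtsl4. In Pde4c/Ttc23l nuclei 6 were higher (9.93% of all genes) and 6 lower (9.22%), and the higher ones were Mmp9, Mmp13, Mmp25, Adamts5, Adamts9 and Adamts17. In mural-like nuclei 11 were higher (15.1%) and 12 lower (14.3%), and Adamts1, Adamts9 and Adamts12 were called higher besides Adamts4 and Adamts15. In osteoblast-like nuclei 3 were higher (3.4%), namely Mmp16, Adamts6 and Adamts18, and 15 lower (27.9%). In osteocyte-like nuclei 4 were higher (6.65%), namely Adamts14, Adamtsl2, Timp2 and Adamts6, and 20 lower (25.7%). Without the 5 richest nuclei Adamts14 alone kept its call, with Timp2 at 0.46 and Adamts6 at 0.51, and Adamtsl2, at 4.50, had 7 of its 14 UMIs left, too few for a call. In Col10a1/Fn1 nuclei 7 were higher (27.2%) and 10 lower (14.1%). In chondrocyte-like nuclei 5 were higher (14.4%), with Timp3, Timp1 and Adamts3 among them, and 22 lower (18%). In tendon/periosteum-like nuclei 7 were higher (12.4%), namely Mmp2, Mmp14, Timp2, Adamtsl1, Adamtsl3, Adamtsl4 and Adamtsl5, and 9 lower (16.6%).

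The median ratio of the 32 genes lay below that of all genes in osteocyte-like nuclei (-1.40 and -0.28), chondrocyte-like nuclei (-1.49 and 0.01), tendon/periosteum-like nuclei (-0.78 and 0.01), Col10a1/Fn1 nuclei (-0.42 and 0.32) and osteoblast-like nuclei (-0.91 and -0.50). The 2 medians were closer in reticular-like (0.14 and 0.30), Pde4c/Ttc23l (0.15 and 0.11) and mural-like nuclei (-0.17 and 0.11). Many of these calls rest on few molecules. Of 52 higher calls, 18 came from fewer than 20 UMIs in the class. Of the other 34, 23 stayed past 2-fold without the 5 nuclei richest in the gene and 11 did not.

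Against all stroma, RNA of the 4 families was low in blood nuclei. Of 33 genes tested, 3 were higher in blood, where 29.8% of all genes were higher, and 24 were lower, where 20% were lower. The higher genes were Mmp8, Mmp25 and Adamts7, the last from 6 UMIs, all in B-lymphoid-like nuclei. The median log2 ratio of blood over stroma was -2.41 for these genes and 0.44 for all genes. Within blood 13 genes could be tested. In granulocyte-like nuclei 3 were higher (6.25% of all genes), namely Mmp8, Mmp9 and Adamts1, the last from 5 UMIs and at 0.527 of its free-RNA level. In macrophage-like nuclei 3 were higher (20.1%), namely Mmp14, Timp2 and Mmp2, of which Mmp2 had 12 of its 13 UMIs in 5 nuclei and stood at 0.504 of its free-RNA level. Whether the Adamts1 and Mmp2 counts in these classes are free RNA was not tested. In erythroid-like nuclei 1 was higher (17%), namely Mmp16, with all 24 UMIs in 5 nuclei and at 0.831 of free RNA. In B-lymphoid-like nuclei 2 were higher (16.9%), namely Adamts6 (17 UMIs, 63.5 CPM, ratio 1.65, and 1.06 without the 5 richest nuclei) and Adamts10, with 9 of its 10 UMIs in 5 nuclei. The macrophage-like class also held osteoclast genes, with Acp5 at 167 CPM, Atp6v0d2 at 93.8 CPM and Ctsk at 79.2 CPM, and Mmp9 was at 43.8 CPM there, below the free-RNA level. The osteoclast share of the class was not tested.

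Accessibility was counted as ATAC counts in peaks over the gene or within 3 kb upstream of it, per 1000000 ATAC counts of the class. Of 48 genes tested, 6 were higher in blood than in stroma (14.3% of all genes) and 26 lower (24.8%), with a median of -1.34 against 0.27 for all genes. The higher ones were Mmp8, Mmp9, Mmp10, Mmp12, Mmp27 and Adamts13, and except Adamts13 and Mmp9 these lie in 1 cluster on chromosome 9. Among stromal classes, reticular-like nuclei had 5 higher genes (5.33%), osteoblast-like nuclei 6 (7.39%), Pde4c/Ttc23l nuclei 0 (2.33%) and mural-like nuclei 0 (6.42%). In osteoblast-like nuclei Mmp16, Adamts15, Adamts18, Adamtsl2, Mmp20 and Mmp21 were higher, the last 2 without any UMI.

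RNA and accessibility mostly took the same direction. Of 155 RNA calls over the 8 stromal classes, accessibility had the same sign in 114 (73.5%), and over all genes in 18130 of 27603 (65.7%). Counting only peaks within 1 kb of the start site gave 114 of 151 (75.5%). Across the 12 classes, which share 1 pair of libraries and differ in depth, Spearman's rho between RNA and accessibility had a median of 0.75 over the 27 genes and 0.37 over 9992 genes. It was highest for Adamts10 (0.90), Adamts5 (0.89) and Adamts2 (0.86) and lowest for Adamts15 (-0.08), Mmp8 (0.26), Adamts14 (0.38) and Timp2 (0.44). The 12 classes include the blood classes, where most tested genes of the set were lower in both readouts. A rho over the stromal classes alone was not computed.

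In the class with their highest RNA, Mmp16 and Mmp8 were called higher in both readouts, although Mmp8 had a low rho over the 12 classes. Mmp16 accessibility was 74.2 CPM in osteoblast-like nuclei and 27.6 CPM in the other stromal classes (ratio 1.43), and that of Mmp8 was 58.5 CPM in granulocyte-like nuclei and 7.68 CPM in the other blood classes (2.93). For Adamts14 RNA and accessibility parted. Accessibility was 123 CPM in osteocyte-like nuclei and 136 CPM in the other classes (-0.15), where its RNA ratio was 3.40, while reticular-like nuclei had 199 CPM and a ratio of 1.13. Adamts15 accessibility was 40.6 CPM in mural-like nuclei (0.45, RNA 4.33) and 57.6 CPM in osteoblast-like nuclei (1.42), where its RNA was at 7.70 CPM. Adamts4 accessibility in mural-like nuclei was 119 CPM (0.10, RNA 4.13). Timp3 accessibility in chondrocyte-like nuclei was 73.1 CPM (0.15, RNA 3.48), counted over peaks shared with Syn3. Mmp13 accessibility was 27.3 CPM in Pde4c/Ttc23l, 26.5 CPM in reticular-like and 24.1 CPM in Col10a1/Fn1 nuclei, and 7.89 to 14.0 CPM in the other 5 stromal classes. Timp1 accessibility was 42.7 CPM in chondrocyte-like nuclei and 24.6 CPM in the other stromal classes (0.80, RNA 1.59).

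**Figure D4:**
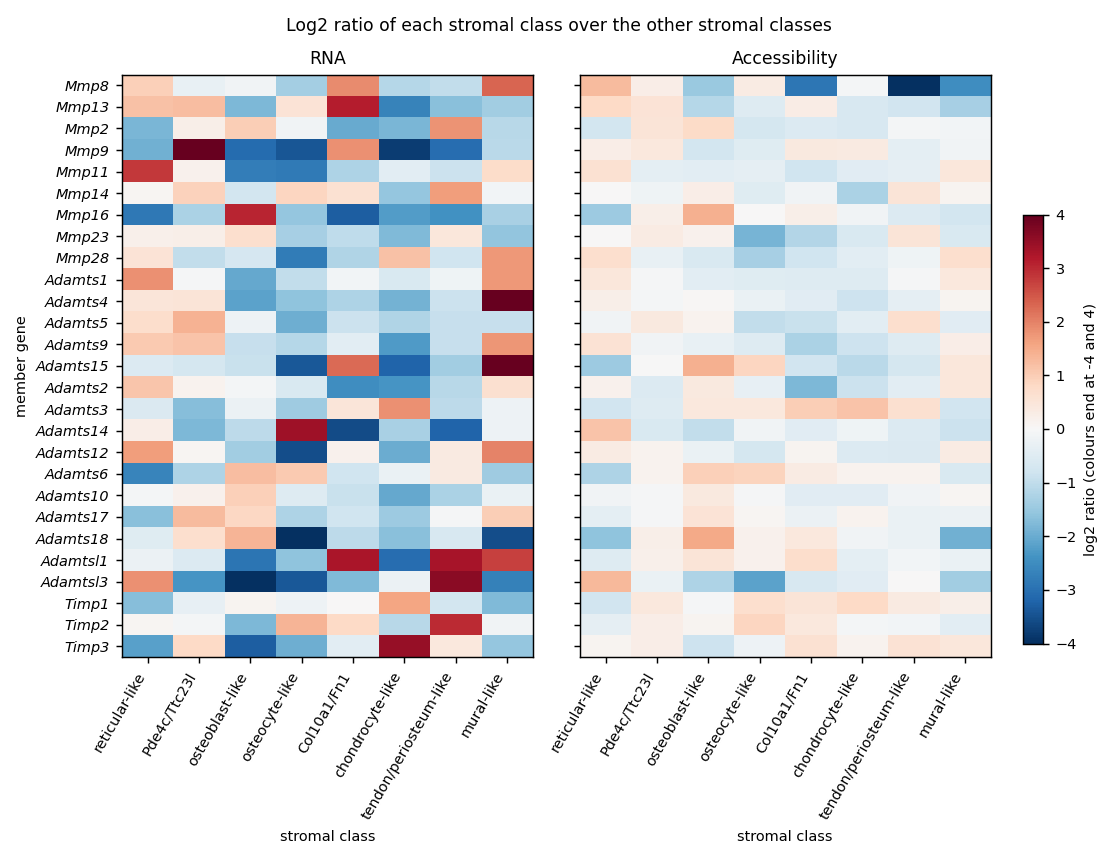
Log2 ratio of each stromal class to the other stromal classes for RNA (left) and accessibility (right), for the 27 genes with at least 50 UMIs; the colour scale ends at -4 and 4. Mmp16 and Adamts18 in osteoblast-like nuclei are high on both sides, and Adamts4, Adamts15 and Timp3 reach RNA ratios of 4.13, 4.33 and 3.48 in mural-like and chondrocyte-like nuclei with accessibility ratios of 0.10, 0.45 and 0.15.

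Single peaks of Mmp9 and Mmp13 (coordinates on mm10) differed between the classes with RNA. The Mmp9 start-site peak (chr2:164940425-164940965) had 2.47 CPM in Pde4c/Ttc23l nuclei, from 22 counts, and 4.99 CPM in Col10a1/Fn1 nuclei, from 6 counts (1.83 to 10.9). It had 0.582 CPM in reticular-like and 0.662 CPM in osteoblast-like nuclei. It had 4.80 CPM in macrophage-like and 0.696 CPM in granulocyte-like nuclei, there from 1 count. Granulocyte-like nuclei were instead open at an intronic Mmp9 peak 2.3 kb downstream of the start (chr2:164942627-164943539), with 74.5 CPM against 10.1 CPM in the other blood classes (2.88), and 1.9 kb upstream, with 39.7 CPM against 6.65 CPM (2.58). In Pde4c/Ttc23l nuclei the intronic Mmp9 peak had 0.787 CPM. A peak 4.71 kb upstream of Mmp9 had 13.4 CPM in macrophage-like nuclei and 0.252 CPM in the other blood classes (5.43), and 18.8 CPM in Pde4c/Ttc23l nuclei. The 5 Mmp9-rich nuclei had 22 ATAC counts over Mmp9 (61.3 CPM, 38.4 to 92.8) and the other 222 nuclei 20.2 CPM (17.3 to 23.4).

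The Mmp13 start-site peak (chr9:7272019-7272933) was open in all classes with Mmp13 RNA, at 19.96 CPM in Col10a1/Fn1, 17.1 CPM in Pde4c/Ttc23l, 15.1 CPM in reticular-like and 9.61 CPM in osteocyte-like nuclei, and at 7.48 CPM in osteoblast-like nuclei. Distal Mmp13 peaks separated these classes. The peak 29.5 kb upstream (chr9:7242548-7243436) had 25.2 CPM in Pde4c/Ttc23l nuclei and 11.7 CPM in the other stromal classes (1.10). The peak 19.1 kb upstream (chr9:7252967-7253817) had 19.96 CPM in Col10a1/Fn1 nuclei and 5.22 CPM in the others (1.96), and 13.6 CPM in B-lymphoid-like nuclei, where Mmp13 RNA was at 112 CPM, below its level in free RNA. An intronic peak 4.69 kb downstream of the start (chr9:7276800-7277602) had 5.003 CPM in reticular-like nuclei and 1.55 CPM in the others (1.69).

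**Figure D5:**
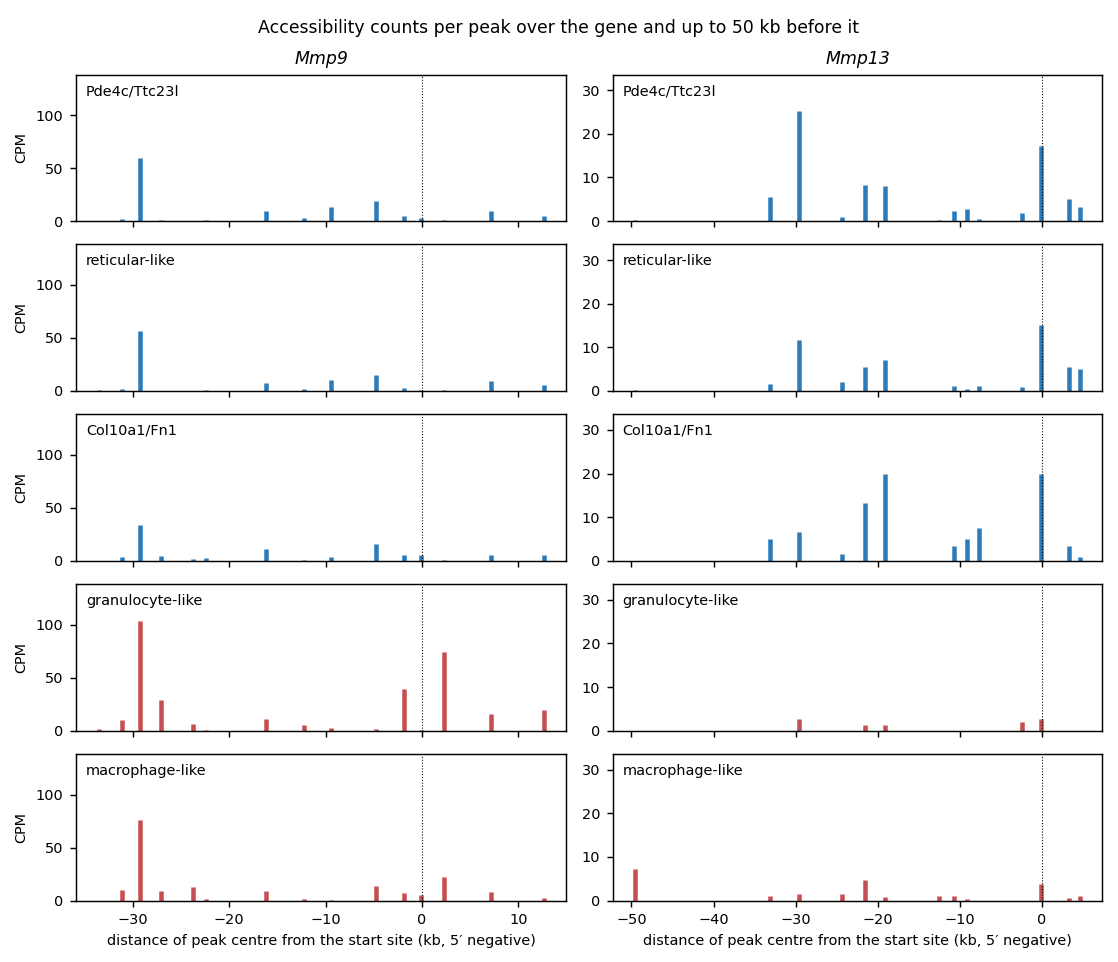
Accessibility (CPM, linear axis from 0) of each peak within 50 kb upstream of, or inside, Mmp9 (left) and Mmp13 (right) against distance from the start site (kb), in Pde4c/Ttc23l, reticular-like, Col10a1/Fn1, granulocyte-like and macrophage-like nuclei. The Mmp9 peak at 2.3 kb is highest in granulocyte-like nuclei (74.5 CPM), and the tall peak 29.2 kb upstream lies at the start site of another gene, Zfp335.

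Away from start sites, the 5 peaks with the largest ratios among those with at least 50 counts in the class lay at ADAMTS genes, and 4 of them were high in chondrocyte-like nuclei. Peaks were examined at the 27 genes with at least 50 UMIs, and the ADAMTS and ADAMTSL genes held 450 of these 630 peaks. In chondrocyte-like nuclei 105 of the 611 that could be tested were higher, where 26.2% of all peaks were, and in osteocyte-like nuclei 94 were, where 18.9% of all peaks were. A peak 34.8 kb upstream of Adamts12 (chr15:11029571-11030463) had 16.0 CPM in chondrocyte-like nuclei and 0.576 CPM in the other stromal classes (4.79), and one in an Adamts17 intron 269 kb from the start (chr7:67108633-67109068) had 18.5 and 0.762 CPM (4.59). Intronic peaks of Adamts3 66.7 kb from the start (chr5:89816200-89817067) and Adamts14 33.1 kb from the start (chr10:61239937-61240793) had 19.9 and 18.5 CPM in chondrocyte-like nuclei, against 0.966 and 0.949 CPM in the others (4.36 and 4.28). RNA of Adamts3 was called higher in these nuclei, and RNA of Adamts12, Adamts14 and Adamts17 was called lower. The Adamts3 call did not hold without the 5 richest nuclei (0.78). The fifth, in an Adamts6 intron 173 kb from the start (chr13:104460102-104460997), had 30.04 CPM in osteocyte-like nuclei and 1.38 CPM in the others (4.45), the class in which Adamts6 RNA had its highest level. In blood, a Timp2 intron peak 36.9 kb from the start had 76.6 CPM in granulocyte-like nuclei and 2.996 CPM in the others (4.66), where Timp2 RNA was at 67.1 CPM. A peak 48.8 kb upstream of Mmp14 had 16.1 CPM in macrophage-like nuclei and 0.126 CPM in the others (6.42) but lies within Slc7a7, and a peak upstream of Mmp11 with 42.4 CPM in B-lymphoid-like nuclei overlaps Vpreb3, a B cell gene.

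The central 300 bases of 3 of these peaks are shown, since they are among the 5 with the largest ratios. RNA of their genes was called higher (Adamts3, Adamts6) or lower (Adamts12) in the same class. Neither higher call held without the 5 richest nuclei, at 0.78 for Adamts3 and 0.51 for Adamts6. The stretches are chr5:89816484-89816783 (Adamts3), chr13:104460400-104460699 (Adamts6) and chr15:11029868-11030167 (Adamts12), on the plus strand of mm10, with matches to the 5 motifs in capitals.
Adamts3 intron peak: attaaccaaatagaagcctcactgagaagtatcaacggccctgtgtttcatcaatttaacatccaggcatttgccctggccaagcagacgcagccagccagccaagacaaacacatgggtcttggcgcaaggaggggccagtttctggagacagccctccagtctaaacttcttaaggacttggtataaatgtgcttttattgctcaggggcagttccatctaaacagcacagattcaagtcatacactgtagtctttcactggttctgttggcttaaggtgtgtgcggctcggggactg
Adamts6 intron peak: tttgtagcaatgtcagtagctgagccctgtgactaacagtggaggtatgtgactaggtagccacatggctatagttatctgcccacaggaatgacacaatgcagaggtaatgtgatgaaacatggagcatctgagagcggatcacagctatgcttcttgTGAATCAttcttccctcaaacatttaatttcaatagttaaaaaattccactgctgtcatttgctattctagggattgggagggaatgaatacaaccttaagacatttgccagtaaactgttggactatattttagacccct
Adamts12 upstream peak: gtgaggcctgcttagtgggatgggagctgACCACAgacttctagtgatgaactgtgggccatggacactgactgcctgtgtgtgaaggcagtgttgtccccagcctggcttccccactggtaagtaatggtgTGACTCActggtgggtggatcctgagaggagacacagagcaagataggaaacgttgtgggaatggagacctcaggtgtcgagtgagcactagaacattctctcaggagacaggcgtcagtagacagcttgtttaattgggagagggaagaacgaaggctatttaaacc
Counted from the first base printed, the Adamts6 peak held an AP-1 match at 160 to 166. The Adamts12 peak held an AP-1 match at 133 to 139 and a RUNX match on the minus strand at 30 to 35. The Adamts3 peak held none of the 5. Of the central 300 bases of 203502 peaks, 20.377% held the AP-1 letters and 32.348% the RUNX letters, 23.396% SOX, 12.083% ETS and 15.029% C/EBP.

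The chromosome 9 cluster showed how differently neighbouring genes behaved. Within 427 kb (chr9:7272514-7699585) lie Mmp13, Mmp12, Mmp1b, Mmp3, Mmp10, Mmp8, Mmp27, Mmp20 and Mmp7, 9 genes of which Mmp13 (4822 UMIs) and Mmp8 (110 UMIs) passed 50 UMIs. At one end Mmp13 was a stromal gene and in the middle Mmp8 a granulocyte-like gene. Accessibility of Mmp27, which begins next to Mmp8, and of Mmp10 was higher in blood than in stroma, at 14.4 and 2.35 CPM and at 9.24 and 1.85 CPM, although they held 1 and 0 UMIs in blood. Of the 35 genes with a RefSeq promoter in the table used, 7 held the AP-1 letters (20%, against 7.808% of all promoters). All 7 lie in this cluster (Mmp13, Mmp12, Mmp1b, Mmp3, Mmp10, Mmp20 and Mmp7), where 9 have a promoter, and none of the other 26 held them. The letters were shared by Mmp13 and by genes with 0 to 12 UMIs.

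Other genes of matrix turnover, in 9 lists of 109 genes, were read in the same way. The list of genes known to induce MMPs held 19 genes, all tested, which were cytokine receptors, transcription factors and Bsg. Of these, 7 were higher in reticular-like nuclei (17.2% of all genes). In osteoblast-like nuclei 13 were lower (27.9%), and the median was -1.44 for the list and -0.50 for all genes. Il1r1, the receptor of interleukin 1, was at 20.4 CPM in osteoblast-like nuclei and 209 CPM in the other stromal classes (-3.35), and Nfkb1 was at 26.6 CPM in osteocyte-like nuclei and 243 CPM in the others (-3.13). Pcolce2, an enhancer of procollagen C-terminal processing, was at 542 CPM in chondrocyte-like nuclei and 24.2 CPM in the others (4.48). The proprotein convertase Furin, which activates membrane-bound MMPs, was at 125 CPM in chondrocyte-like nuclei and 53.7 CPM in the others (1.23). The secreted serine protease Htra1 was at 642 CPM in Col10a1/Fn1 nuclei and 80.7 CPM in the others (2.999), and Adam12 at 28.2 and 296 CPM (-3.22). Reck, a membrane-anchored MMP inhibitor, was at 2.42 CPM in osteocyte-like nuclei, from 1 UMI, and 29.6 CPM in the others (-3.03).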

How the data were processed

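Per the file headers, the deposited matrix of whole-number UMI counts per gene and ATAC counts per peak came from Cell Ranger ARC (version 2.0.0, genome mm10), run by the authors. RNA and ATAC are read from the same barcodes. A barcode was kept if it had 500 or more UMIs, 1000 or more ATAC counts and a mitochondrial share of no more than 20%. Scrublet marked 10 of 2684 as doublets, so the 58 with the highest scores were removed (0.8% per 1000 nuclei). Nuclei were clustered with scanpy 1.11.5 and leidenalg 0.10.2 (3000 variable genes, 30 components, 30 neighbours, resolution 1.0, seed 1), with numpy 2.4.6, pandas 2.3.3, scipy 1.17.1 and matplotlib 3.10.9. The rule that named clusters, and the Col10a1/Fn1 sub-cluster, were set after the data were seen, and the genes and lists were chosen with earlier results of these data known. Levels are summed counts per class. The counting script was tested on simulated data. Free RNA came from barcodes with 100 to 400 UMIs and under 500 ATAC counts. Genes with at least 50 UMIs are described one by one. For each other list up to 3 genes with the largest ratio and at least 20 UMIs qualified to be named, and of the peaks, the 5 with the largest ratio. Upstream peaks were listed to 50 kb. Promoters were found for 35 of the 50 genes, and protein sequences were not used here. No column of another sample was used. Sample-level tests were not possible with 1 library of each kind, and the alternatives tried are given below.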

Additional observations from a re-analysis of the deposited data

Results flagged for a closer look

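RNA of 2 genes was present in nuclei that enter no comparison. Adamts9 was at 454 CPM in the 19 endothelial-like nuclei (319 to 625), above its level in the 4 blood classes, which ran from 8.39 to 37.4 CPM. Mmp13 was at 485 CPM in the 520 unnamed nuclei (440 to 533), where the blood classes had 112 to 168 CPM and free RNA had 540 CPM.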

How the results depend on the processing

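RNA calls over the 8 stromal classes numbered 155. They numbered 75 with at most 10% mitochondrial UMIs and new clusters, 95 with each nucleus gated alone by its markers, and 102 at 3-fold. Accessibility calls numbered 72, and 39 both with each nucleus gated alone and at 3-fold. Named classes held 2087 nuclei, 1110 under the 10% limit and 3646 without a mitochondrial limit. Of the 155 RNA calls, 98 could be compared under the 10% limit with new clusters, where 56 kept their call and 14 changed sign. Mmp9 in reticular-like nuclei and Mmp2, Mmp14 and Timp2 in chondrocyte-like nuclei were among the 14. With each nucleus gated alone, 126 could be compared, where 87 kept their call and 7 changed sign. Osteocyte-like, Col10a1/Fn1 and tendon/periosteum-like classes did not form under the 10% limit with new clusters. Pde4c/Ttc23l and Col10a1/Fn1 did not form with each nucleus gated alone, and tendon/periosteum-like did not form at Leiden resolution 0.6. Over 34 named pairs of gene and class, and not over all 155 calls, 434 of 488 values kept the call, 49 moved and 5 changed sign. Among these pairs, Mmp9 in Pde4c/Ttc23l nuclei (-0.20) and Adamts3 in chondrocyte-like nuclei (-1.05) changed sign under the 10% limit with new clusters. Adamts3 also did so within the main classes under that limit (-0.53). Mmp13 in reticular-like nuclei did so with equal weight of the other classes (-0.0037), and Mmp9 in Col10a1/Fn1 nuclei without its 5 richest nuclei (-5.03). The cause was not tested. The last 3 alternatives were added after the data were seen. Subtracting expected free RNA, 8.968% to 43.244% of a class's counts, kept 141 of the 155 calls. The classes of 19 and 45 nuclei limit what their levels can show. No paired analysis was possible because there was 1 library of each kind.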

Other observations

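Other matrix genes also differed between stromal classes. Has1, a hyaluronan synthase, was at 49.4 CPM in tendon/periosteum-like nuclei and 4.73 CPM in the other stromal classes (3.41), while Has2 was at 0.670 CPM in osteoblast-like nuclei and 15.5 CPM in the others. Of the 8 tested genes of hyaluronan and heparan sulfate turnover, 4 were higher in tendon/periosteum-like nuclei (12.4% of all genes) and 6 lower in osteoblast-like nuclei (27.9%). Serpinf1, which encodes the secreted serpin PEDF, was at 63.5 CPM in Col10a1/Fn1 nuclei and 674 CPM in the others (-3.33). The protease inhibitor A2m was at 14.8 CPM in reticular-like nuclei and 2.96 CPM in the others (2.31). Pcsk6, a proprotein convertase, was at 25.1 CPM in reticular-like nuclei and 152 CPM in the others (-2.57), and Bmp1, a procollagen C-proteinase, at 153 CPM in chondrocyte-like nuclei and 367 CPM in the others (-1.26).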
